A study of Mus musculus with 4 samples.

Results

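The genes described here are the neurotrophin and insulin-like growth factor (IGF) signals of the ischemic hippocampus, namely the ligands Bdnf, Ntf3, Igf1 and Igf2, the receptors Ntrk2, Ntrk3, Ngfr and Igf1r, and the binding protein Igfbp2. They were taken by symbol from the gene count tables of all 4 libraries, which makes 9 of the 22609 symbols listed, and all 9 passed the filter on low counts that left 14527 genes tested. The libraries came from hippocampi of adult ovariectomized female mice. FLOX+GCI mice, the controls, carried loxP-flanked Cyp19a1, the gene of aromatase, the enzyme that makes estradiol from androgens, and retained aromatase. FBN-ARO-KO+GCI mice lacked Cyp19a1 in forebrain neurons through a Cre driven by the CaMKIIα promoter, which is active in excitatory neurons of the forebrain, so that glia, vessels and other neurons of these mice kept the gene. Both genotypes had their ovaries removed a week earlier and then underwent global cerebral ischemia (GCI) by clipping both common carotid arteries for 20 min, followed by 24 h of reperfusion. Each genotype has 2 libraries, and sham-operated animals were not analysed here, so every difference below is between genotypes after ischemia and none is an effect of ischemia.

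Neurotrophins are secreted growth factors that act through Trk receptor tyrosine kinases and through the p75 receptor. BDNF, bound by TrkB, supports synaptic plasticity and survival of hippocampal neurons, whereas precursor forms of neurotrophins act mainly through p75 together with sortilin. IGF1 and IGF2 act through the IGF1 receptor, IGF2 is also cleared by the IGF2 receptor, and IGF binding proteins hold both ligands in the extracellular fluid and set how much reaches a receptor. In brain, Igf2 is known as a gene of the leptomeninges and the choroid plexus, Igf1 as a gene of microglia and some neurons, and TrkB, made by Ntrk2, as a receptor of both neurons and astrocytes.

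Total gene counts per library ranged from 24333396 to 33076795, at which 3 counts amounted to 0.0905 to 0.122 CPM, the count scaled to library size. Levels are given below as CPM adjusted by edgeR's TMM factors, which lay between 0.9729 and 1.013. Cyp19a1 itself had 4 and 1 counts in the FLOX+GCI libraries and 2 and 2 in the FBN-ARO-KO+GCI libraries, which is too few to check the genotype from these counts. Across genes, the difference between genotypes was correlated with GC content (Spearman rho = -0.558 over 13801 genes, which are not independent replicates), with GC-rich genes lower in the FBN-ARO-KO+GCI libraries. This trend was not equal in both FBN-ARO-KO+GCI libraries. The log2 ratio of their replicate 1 over replicate 2 was also correlated with GC content (rho = 0.484), with GC-rich genes lower in replicate 2. In FLOX+GCI the same rho was -0.103. For many of the genes named below, the value after correction for GC content and length is also given. Nothing in the labels says whether a library is 1 mouse or a pool, so p-values measure only the spread between these libraries. Summed markers of CA pyramidal neurons, led by Nnat, Mpped1 and Neurod6, were at 1701 to 1771 CPM and those of dentate granule neurons, led by Calb1, Stxbp6 and Dsp, at 471.8 to 609.3 CPM, as the hippocampal label implies, while those of the neighboring thalamus and habenula reached at most 186 CPM. Interneuron markers summed to 1268 to 1403 CPM, oligodendrocyte lineage markers to 4229 to 4955 CPM and blood markers to at most 4.709 CPM, with the 4 hemoglobin genes listed at 0. Alas2, another erythroid gene, had 104 and 76 counts in FLOX+GCI libraries and 61 and 67 in those of FBN-ARO-KO+GCI. The hemoglobin zeros and the blood sum are therefore not read as a measure of blood in the tissue. In tissue RNA, fewer cells of a type and less RNA per cell cannot be told apart.

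The proximal sequence of 1 Bdnf start site is shown because Bdnf is the gene of this set best known for induction through the cAMP response element, to which CREB binds. RefSeq promoter windows, of 250 bases before to 50 bases after each start, were found for 8 of the 9 genes, 19 windows in all, with 7 for Bdnf and 4 for Igf2. The full element, TGACGTCA, which reads the same on both strands, was in 0 of these 19 windows and in 1.79% of all 32851 windows. The variant TCACGTCA, searched on both strands and sharing 7 of its 8 letters with the full element, was in 1 of the 19, a Bdnf window, and in 0.441% of all windows. No other variant was searched, and these shares are no measure of enrichment. The 250 bases before that start lie at chr2:109692186-109692435 (GRCm38.p6, plus strand), and the variant, in capitals, begins 38 bases before the start. The match is a description of letters and not of a bound site.
Bdnf promoter: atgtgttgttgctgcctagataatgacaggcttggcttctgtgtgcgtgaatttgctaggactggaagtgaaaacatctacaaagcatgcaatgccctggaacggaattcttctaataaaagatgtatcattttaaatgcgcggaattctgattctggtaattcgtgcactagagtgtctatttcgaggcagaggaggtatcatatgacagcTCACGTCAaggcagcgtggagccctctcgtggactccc

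The first question was whether loss of neuronal aromatase altered the hippocampal level of any of these signals after GCI. None of the 9 genes passed an adjusted p of 0.05 in the quasi-likelihood test of edgeR (Benjamini-Hochberg adjustment), where 0.0138% of all tested genes did, that is 2 of 14527. At an unadjusted p under 0.05, 2 of the 9 genes were counted, Ntrk2 on the higher side and Igfbp2 on the lower, against 16.5% of all tested genes. The likelihood ratio test of edgeR called 1 of the 9, Igfbp2 (adjusted p = 0.0431), against 2.02% of all tested genes. DESeq2 called 0 of the 5 to which it gave an adjusted p, against 5.1% of the 5728 genes with one. The levels of the genotypes did not overlap for 4 of the 9 genes, Ntrk2 higher and Ntrk3, Ngfr and Igfbp2 lower, against 51.8% of all tested genes (25.9% higher and 25.8% lower), so that neither share of the 9 stood far from the background. With the replicate number as a block, 2 of the 9, Igf2 and Igfbp2, passed the adjusted test, against 1.27% of all tested genes, though nothing in the labels ties libraries of the same number to each other. The median log2 difference of the 9 genes was -0.0668, and that of all tested genes was -0.00739.

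**Figure D1:**
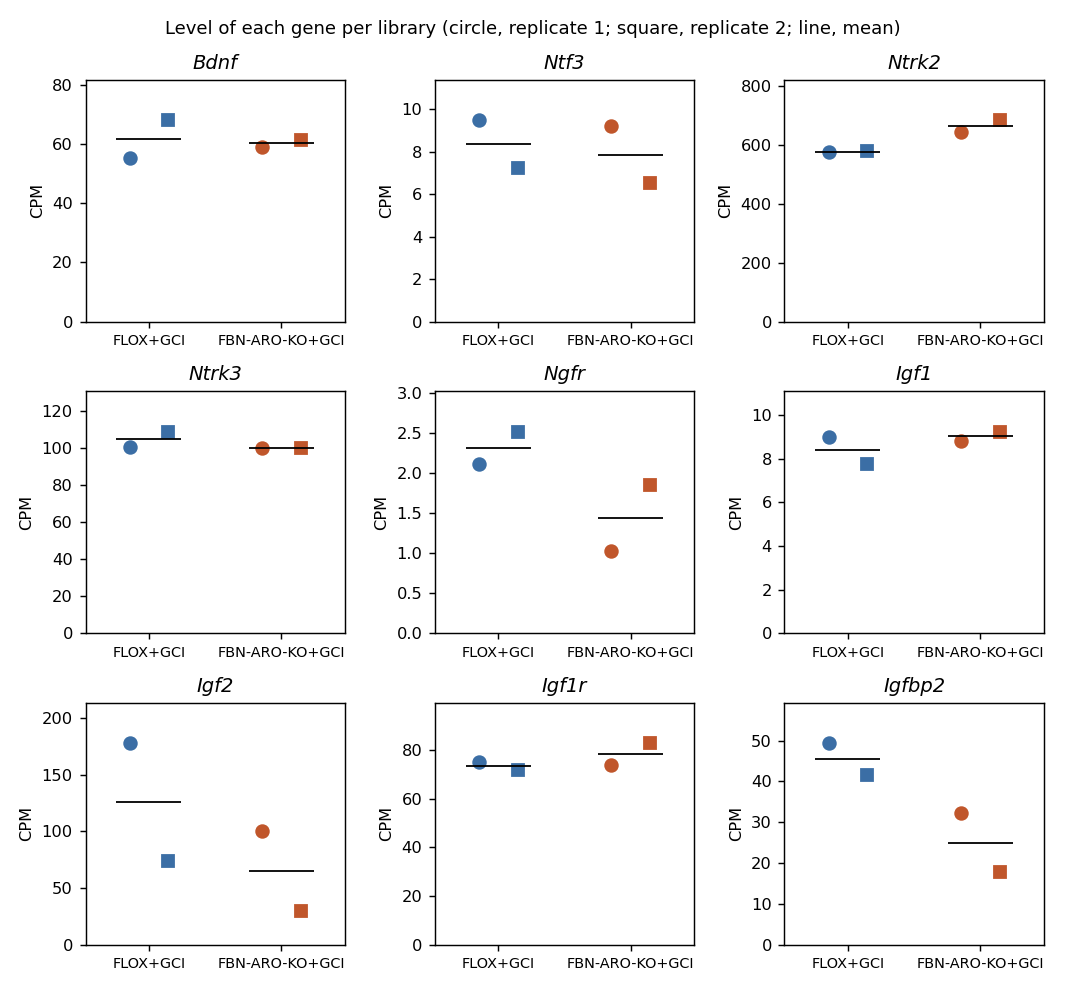
TMM-scaled CPM of the 9 genes in each library, on a linear axis from 0 with its own scale per panel; blue points are FLOX+GCI, orange points FBN-ARO-KO+GCI, circles replicate 1, squares replicate 2 and lines the group means. Igf2 ran from 29.87 to 177.8 CPM with the genotypes overlapping, Igfbp2 was lower in both FBN-ARO-KO+GCI libraries, and Ntrk2 was higher in both.

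Bdnf, the main neurotrophin of the hippocampus, had 1387 and 1678 counts in FLOX+GCI libraries, against 1954 and 1800 in those of FBN-ARO-KO+GCI. These amounted to 55.35 and 68.07 CPM against 58.95 and 61.45 CPM, a mean of 61.71 ± 8.995 (SD, n = 2) against 60.2 ± 1.769 (SD, n = 2). Both FBN-ARO-KO+GCI libraries lay between the FLOX+GCI libraries. The log2 fold change was -0.04 (SE 0.109; adjusted p = 0.889 by edgeR), with a 95% interval from -0.292 to 0.22. Without FLOX+GCI replicate 2 its sign turned, to 0.118. After correction for GC content and length it was -0.225. The gene lies at chr2:109514857-109567204 on the plus strand (mm9), and the counts over all of its exons do not separate the transcripts that start at its different promoters.

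Ntf3, which encodes neurotrophin-3, the preferred ligand of TrkC, was measured at 9.498 and 7.262 CPM in FLOX+GCI libraries, against 9.201 and 6.521 CPM in those of FBN-ARO-KO+GCI. Replicate 1 was the higher library in either genotype, and the genotypes overlapped. The log2 change was -0.09 (SE 0.218; 95% interval -0.601 to 0.421), smaller than the spread within a genotype. Its sign turned without FLOX+GCI replicate 1, to 0.119, and without FBN-ARO-KO+GCI replicate 2, to 0.136. Ntf3 is at chr6:126051431-126116762 on the minus strand (mm9).

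Igf1 encodes a ligand that in the adult brain comes in large part from microglia and from some neurons. Its level was 9.019 and 7.789 CPM in FLOX+GCI libraries, against 8.839 and 9.252 CPM in those of FBN-ARO-KO+GCI, with overlapping genotypes. The log2 fold change was 0.106 (SE 0.15; adjusted p = 0.74 by edgeR) and turned to -0.167 after the GC content and length correction, so no direction is given for Igf1. The summed level of 17 microglia and macrophage markers, Csf1r and Ctss among them, was similarly level at 716.8 and 721.2 CPM in FLOX+GCI libraries, against 696.4 and 753.9 CPM in those of FBN-ARO-KO+GCI. Igf1 spans chr10:87321010-87399792 on the plus strand (mm9), where the annotation places Gm16176 on the opposite strand. Whether the counting used strand is not stated in the sources used here, so reads of Gm16176 could be among those of Igf1.

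Igf2, a ligand of fetal growth that in adult brain is made mostly by the leptomeninges and choroid plexus, varied more between libraries than any other gene of the 9. It had 4455 and 1816 counts in FLOX+GCI libraries, against 3331 and 875 in those of FBN-ARO-KO+GCI, or 177.8 and 73.67 CPM against 100.5 and 29.87 CPM. Replicate 1 was 2.41-fold above replicate 2 in FLOX+GCI and 3.36-fold above it in FBN-ARO-KO+GCI, and FBN-ARO-KO+GCI replicate 1 lay above FLOX+GCI replicate 2. A difference of over 1.5-fold between replicates in that direction in both genotypes was seen for 1.58% of all tested genes. The means were 125.7 ± 73.62 CPM (SD, n = 2) for FLOX+GCI against 65.18 ± 49.94 CPM (SD, n = 2) for FBN-ARO-KO+GCI, and the log2 fold change of -0.94 (SE 0.555; 95% interval -2.24 to 0.357) did not pass the test (adjusted p = 0.408 by edgeR). The value rested on single libraries, since without FBN-ARO-KO+GCI replicate 1 it was -2.08, without FBN-ARO-KO+GCI replicate 2 it was -0.323, without FLOX+GCI replicate 1 it was -0.172 and without FLOX+GCI replicate 2 it was -1.44. Igf2 is at chr7:149836673-149852721 on the minus strand (mm9), where it overlaps Igf2as on the opposite strand and Mir483. Igf2as had 18, 6, 14 and 4 counts in the same library order, and whether the counting used strand is not stated in the sources used here, so a few reads could belong to either gene.

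Among the receptors, Ntrk2, which encodes TrkB, was the most abundant gene of the set. It was measured at 574.4 and 578.4 CPM in FLOX+GCI libraries, against 643.4 and 683.6 CPM in those of FBN-ARO-KO+GCI, from 14258 to 21326 counts per library. Both FBN-ARO-KO+GCI libraries were above both FLOX+GCI libraries, with means of 576.4 ± 2.818 (SD, n = 2) and 663.5 ± 28.42 (SD, n = 2). The log2 fold change was 0.20 (SE 0.0686), a ratio of 1.151, and did not pass the test over all genes (adjusted p = 0.248 by edgeR). It stayed between 0.16 and 0.243 when any 1 library was left out and was 0.137 after the GC content and length correction. Summed astrocyte markers, led by Slc1a2, Aldoc and Slc1a3, were 6643 and 6207 CPM in FLOX+GCI libraries, against 6771 and 7336 CPM in those of FBN-ARO-KO+GCI, and their part in the Ntrk2 values was not tested. Ntrk2 spans chr13:58907957-59235331 on the plus strand (mm9), and gene counts do not separate the full-length kinase form, found mainly in neurons, from the truncated form, found mainly in astrocytes.

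Ntrk3, which encodes TrkC, was measured at 100.5 and 108.7 CPM in FLOX+GCI libraries, against 99.68 and 100.1 CPM in those of FBN-ARO-KO+GCI. The genotypes did not overlap, but the nearest libraries were almost level, and the log2 fold change of -0.07 (SE 0.0756) turned to 0.025 after the GC content and length correction. Its 95% interval ran from -0.244 to 0.11. Ntrk3 is at chr7:85337248-85723294 on the minus strand (mm9).

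Ngfr, which encodes the p75 receptor, was the least abundant gene of the set, with 53 and 62 counts in FLOX+GCI libraries, against 34 and 54 in those of FBN-ARO-KO+GCI. Scaled by library these were 2.115 and 2.515 CPM against 1.026 and 1.844 CPM. Both FBN-ARO-KO+GCI libraries were below both FLOX+GCI libraries, although FBN-ARO-KO+GCI replicate 2 lay nearer to the controls than to its own replicate. The log2 fold change was -0.70 (SE 0.344; 95% interval -1.5 to 0.11; adjusted p = 0.349 by edgeR), and it ranged from -1.17 without FBN-ARO-KO+GCI replicate 2 to -0.33 without FBN-ARO-KO+GCI replicate 1. After the GC content and length correction it was -0.488. The gene is at chr11:95430132-95449049 on the minus strand (mm9).

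Igf1r, the receptor through which both IGFs signal, was measured at 75.15 and 71.72 CPM in FLOX+GCI libraries, against 73.79 and 82.72 CPM in those of FBN-ARO-KO+GCI. FBN-ARO-KO+GCI replicate 1 lay between the FLOX+GCI libraries, so the genotypes overlapped. The log2 fold change was 0.09 (SE 0.0864; 95% interval -0.111 to 0.294). It was 0.00819 without FBN-ARO-KO+GCI replicate 2, 0.168 without FBN-ARO-KO+GCI replicate 1 and 0.174 after the GC content and length correction. Igf1r spans chr7:75097713-75371484 on the plus strand (mm9).

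Igfbp2 encodes the IGF binding protein that is abundant in brain, and it had the smallest p of the 9 genes. Its counts were 1237 and 1028 in FLOX+GCI libraries, against 1066 and 521 in those of FBN-ARO-KO+GCI, which gave 49.37 and 41.7 CPM against 32.16 and 17.79 CPM. Both FBN-ARO-KO+GCI libraries were below both FLOX+GCI libraries, with means of 45.53 ± 5.418 (SD, n = 2) in FLOX+GCI against 24.97 ± 10.16 (SD, n = 2) for FBN-ARO-KO+GCI. The FLOX+GCI level was 1.819-fold the FBN-ARO-KO+GCI level, with a log2 change of -0.86 (SE 0.245; 95% interval -1.44 to -0.289). This difference did not pass the test over all genes (adjusted p = 0.238 by edgeR), and after the GC content and length correction it was -0.555, Igfbp2 being GC-rich at 62.1% where the median tested gene had 50.6%. The GC trend ran along genotype across genes, so GC content and genotype cannot be told apart in this difference. Without FBN-ARO-KO+GCI replicate 2 the difference was -0.501, and without FBN-ARO-KO+GCI replicate 1 it was -1.36. It was -0.734 without FLOX+GCI replicate 1 and -0.981 without FLOX+GCI replicate 2. In the last of these settings it passed the test (adjusted p = 0.0426 by edgeR), as did 0.854% of all genes then tested, with FLOX+GCI replicate 1 as the lone control. Igfbp2 is at chr1:72871077-72899048 on the plus strand (mm9).

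**Figure D2:**
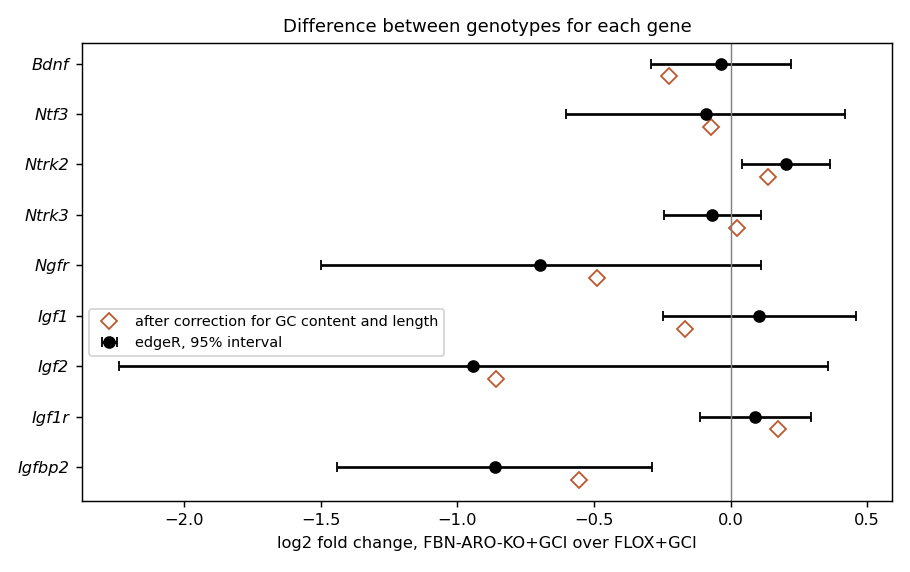
Log2 fold change of FBN-ARO-KO+GCI over FLOX+GCI for each gene (black points) with its 95% interval from edgeR, and the value after correction for GC content and length (open diamonds). The intervals of Ntrk2 and Igfbp2 leave out 0 before adjustment over all genes, and the corrected values of Igf1 and Ntrk3 lie on the other side of 0.

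Both Igf2 and Igfbp2 are known to be expressed in leptomeninges and choroid plexus, which lie at the hippocampal surface, so markers of these and other cells were read beside them. The 18 markers of leptomeninges and fibroblasts summed to 468 and 273.8 CPM in FLOX+GCI libraries, against 307.2 and 200 CPM in those of FBN-ARO-KO+GCI. Replicate 1 was above replicate 2 in both genotypes for 16 of these 18 genes, a count for which no share over all genes was taken. The FBN-ARO-KO+GCI mean was below the FLOX+GCI mean for 18 of 18. Of these 2 did not overlap, against 25.8% of all tested genes on the lower side. The most abundant of these markers, Dcn, Pdgfra and Fmod, behaved unequally. Fmod, an extracellular matrix proteoglycan, had 51.76 and 15.98 CPM in FLOX+GCI libraries, against 28.69 and 1.605 CPM in those of FBN-ARO-KO+GCI, whereas Pdgfra, which oligodendrocyte precursors also express, stayed between 71.77 and 77.98 CPM. None of the 18 was at 0 in all libraries.

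Vascular markers had a like order of libraries. The 9 mural cell markers, led by Vtn, Acta2 and Pdgfrb, summed to 337.5 and 227.3 CPM in FLOX+GCI libraries, against 267.6 and 157.6 CPM in those of FBN-ARO-KO+GCI. The 11 endothelial markers, led by Flt1, Slco1a4 and Ly6c1, summed to 353.2 and 260.2 CPM against 290.6 and 217.6 CPM, with a lower FBN-ARO-KO+GCI mean for 11 of 11 and no overlap for 3. The 19 choroid plexus markers, led by Enpp2, Trpm3 and Kl, did not share this order, at 294.3 and 268.3 CPM against 265.4 and 320 CPM, with a lower FBN-ARO-KO+GCI mean for 11 of 19 and no overlap for 6 on the lower and 2 on the higher side. Of all tested genes, 25.8% did not overlap on the lower and 25.9% on the higher side. On the lower side Kcne2, Tmem72 and Steap1, with at most 12 counts per library, were not tested, so that share does not cover them. The leading genes Enpp2, Trpm3 and Kl are also expressed by other brain cells. Ttr, a defining gene of the choroid plexus epithelium that is singled out here after its values were seen, was measured at 26.5 and 21.91 CPM in FLOX+GCI libraries, against 8.93 and 15.64 CPM in those of FBN-ARO-KO+GCI. Other genes of the list went the other way. Clic6 had 1.117 and 1.095 CPM against 1.146 and 1.468 CPM, and Folr1 had a higher FBN-ARO-KO+GCI mean with overlap. Ttr alone thus does not stand for the list. The libraries ranked alike for Igf2 and the leptomeningeal, mural and endothelial sums, from FLOX+GCI replicate 1 down through FBN-ARO-KO+GCI replicate 1 and FLOX+GCI replicate 2 to FBN-ARO-KO+GCI replicate 2. Igfbp2 ranked otherwise, with both FLOX+GCI libraries on top, and the part of these cells in either result was not tested.

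**Figure D3:**
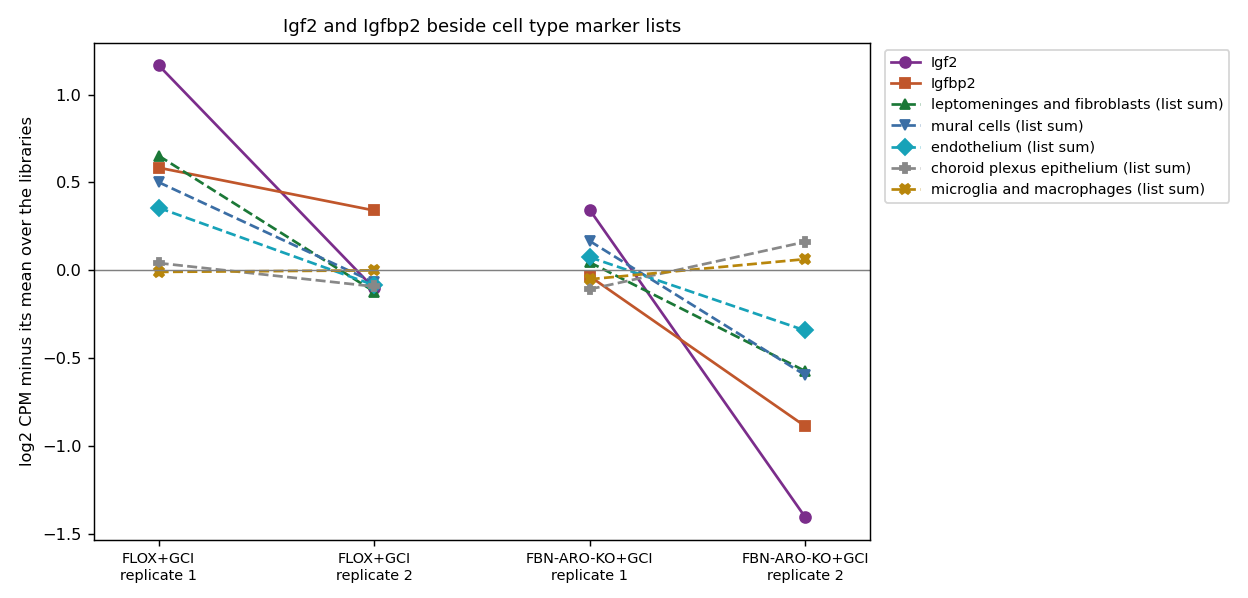
Log2 CPM of Igf2, Igfbp2 and the summed markers of 5 cell types in each library, minus the mean over the 4 libraries; solid lines are the genes, dashed lines the marker sums, and a line joins the libraries of 1 genotype. Igf2 ranged from 29.87 to 177.8 CPM with the same order of libraries within each genotype as the leptomeningeal, mural and endothelial sums, while the microglial sum stayed between 696.4 and 753.9 CPM.

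The genes nearest in pattern to Igf2, Igfbp2 and Ngfr, the members whose log2 CPM spanned over 1 across the libraries, were found by Euclidean distance between centered log2 CPM over the 4 libraries, among 12742 genes with a mean of at least 50 counts. For Igf2 they were Alx4, Ptgds, Slc6a20a, Lepr and Myh11, at distances of 0.185 to 0.242, and 29 genes lay within 0.5. Ptgds, a prostaglandin D synthase abundant in leptomeninges, had 1639 and 764.1 CPM in FLOX+GCI libraries, against 1112 and 311.1 CPM in those of FBN-ARO-KO+GCI. For Igfbp2 they were Ptges, Igfbp6, Icam2, Anxa2 and Crip1, with 95 genes within 0.5. For Ngfr they were Gsg1l, Opalin, Gm129, Fhdc1 and Gucy2g, with 57 genes within 0.5. Over only 4 libraries, these names are a description.

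Levels of different genes were compared as CPM per kilobase of exons. In FLOX+GCI the order of mean levels was Ntrk2 at 38.2, Igfbp2 at 24.7, Igf2 at 22.9, Ntrk3 at 20.0, Igf1r at 16.4, Bdnf at 10.5, Ntf3 at 5.87, Igf1 at 0.847 and Ngfr at 0.672 CPM per kilobase. Igf2 could not be ordered against Igfbp2, Ntrk3 or Igf1r, since its libraries spread over the levels of these neighbors. In FBN-ARO-KO+GCI the order was Ntrk2 at 44.0, Ntrk3 at 19.1, Igf1r at 17.5, Igfbp2 at 13.5, Igf2 at 11.9, Bdnf at 10.3, Ntf3 at 5.51, Igf1 at 0.912 and Ngfr at 0.416. Here the libraries of Igf1r, Igfbp2 and Igf2 overlapped one another, and those of Bdnf lay within the spread of both Igfbp2 and Igf2, which reached down to Ntf3 in the case of Igf2. The receptors TrkB and TrkC were thus more abundant per length at the RNA level than their ligands in both genotypes.

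The other genes of both pathways were then examined, as 132 listed genes of which 121 passed the filter on low counts. None passed an adjusted p of 0.05 in edgeR's quasi-likelihood test, and at an unadjusted p under 0.05 there were 17 genes on the higher and 16 on the lower side, against 8.72% higher and 7.82% lower of all tested genes. DESeq2 called 4 of the 71 pathway genes to which it gave an adjusted p, where it called 5.1% of all genes, and these were Homer1, Htra1, Lingo1 and Vgf. The likelihood ratio test of edgeR called those and Dok5, Fos, Igfbp6, Npas4 and Socs3, 9 of 121, where it called 2.02% of all genes. The median log2 difference of the 121 genes was -0.00799. The 17 higher genes had a median GC content of 44.6% and the 16 lower genes one of 60.1%. After the GC content and length correction the counts were 12 and 8, while the count over all 14527 tested genes fell from 2403 to 1646. Unadjusted counts in the next paragraphs are read with that in mind, and no gene named in them passed the adjusted quasi-likelihood test.

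Of the 9 measured neurotrophin ligands and receptors outside the set, 1 was higher and 2 were lower at an unadjusted p under 0.05. At that threshold, 8.72% of all tested genes were higher and 7.82% lower. Ntf5, which encodes neurotrophin-4, another ligand of TrkB, had at most 8 counts per library and was not tested. Lingo1 and Rtn4r, which encode partners of p75 in the Nogo receptor complex, had the smallest p of this list. Lingo1 was at 296.6 and 351.9 CPM in FLOX+GCI libraries, against 259.8 and 237 CPM in those of FBN-ARO-KO+GCI, with a log2 change of -0.38 (SE 0.0984; adjusted p = 0.238 by edgeR), and -0.207 after the GC content and length correction. Rtn4r was at 105.5 and 95.25 CPM against 86.34 and 70.98 CPM, but its log2 fold change of -0.35 shrank to -0.0416 after the GC content and length correction.

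Among 13 measured genes of neurotrophin processing and p75 signaling, 0 were higher and 1 was lower at an unadjusted p under 0.05. That gene, Ngfrap1, which encodes a p75-associated protein, had a log2 fold change of -0.22 (SE 0.075), and Furin, a protease that cleaves proneurotrophins, one of -0.25 (SE 0.115). After the GC content and length correction these were -0.0736 and -0.0811. Of 20 Trk adaptors and effectors, 5 were higher and 1 was lower. For both lists, the shares of all tested genes were 8.72% higher and 7.82% lower. Frs3, an adaptor that docks on Trk receptors, was at 18.36 and 18.82 CPM in FLOX+GCI libraries, against 14.15 and 12.12 CPM in those of FBN-ARO-KO+GCI, the lower one. Its log2 fold change of -0.50 was -0.235 after the GC content and length correction. Sos2, an exchange factor for Ras, was at 39.19 and 40.45 CPM against 45.8 and 50.42 CPM, with a log2 change of 0.27, and 0.143 after the correction.

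On the IGF side, Ins1 and Ins2, the mouse insulin genes, had 0 counts in every library, and Insrr was too low to test. Insr, the insulin receptor, and Igf2r, which clears IGF2, had log2 fold changes of 0.12 (SE 0.106) and 0.11 (SE 0.0866). The former was 0.0341 after the GC content and length correction. Of 10 measured IGF binding proteins and their proteases outside the set, 2 were higher and 2 lower at an unadjusted p under 0.05. The shares of all tested genes were 8.72% higher and 7.82% lower. Igfbp6, a binding protein that prefers IGF2, was at 14.97 and 13.51 CPM in FLOX+GCI libraries, against 8.658 and 5.735 CPM in those of FBN-ARO-KO+GCI. The log2 change of -0.98 (SE 0.204) was close in size to that of Igfbp2, did not pass the test (adjusted p = 0.238 by edgeR) and was -0.686 after the GC content and length correction. Htra1, a secreted protease that cleaves binding proteins, was higher in both FBN-ARO-KO+GCI libraries, at 237.9 and 223.9 CPM against 187 and 182.6 CPM, with a log2 change of 0.32 (SE 0.0707), and 0.487 after the correction.

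Of 13 insulin receptor substrates and adaptors, 0 were higher and 2 lower at an unadjusted p under 0.05. The shares of all tested genes were 8.72% higher and 7.82% lower. Dok5, an adaptor of insulin and Trk receptors in neurons, was at 17.72 and 20.04 CPM in FLOX+GCI libraries, against 13.52 and 12.7 CPM in those of FBN-ARO-KO+GCI. Socs3, an inhibitor of cytokine and insulin signaling, was at 2.275 and 13.39 CPM against 1.478 and 1.536 CPM, and its log2 fold change of -2.37 was -0.596 without FLOX+GCI replicate 2. The same library held the highest summed level of 15 acute injury genes, at 1437 CPM where the others had 640.7 to 825.2 CPM. Socs3 is itself on that list, and Gfap at 900.3 CPM and Serpina3n at 438.2 CPM made up most of that sum. Not every listed gene was highest there, Lcn2 being at 4.949 CPM against 8.176 CPM in FBN-ARO-KO+GCI replicate 1. H19, which shares its imprinted locus with Igf2, had 8 and 10 counts in FLOX+GCI libraries, against 4 and 0 in those of FBN-ARO-KO+GCI, and was not tested. Igf2bp2, a binding protein of Igf2 mRNA, had 11 and 13 counts against 7 and 8, with a log2 change of -0.99 (SE 0.507; adjusted p = 0.36 by edgeR).

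Downstream, 38 genes of the PI3K, AKT and MAPK cascade had a median log2 difference of 0.0771. At an unadjusted p under 0.05, 7 of them were higher and 3 lower, against 8.72% and 7.82% of all tested genes. Rps6ka5, a kinase that phosphorylates CREB, was at 21.91 and 19.03 CPM in FLOX+GCI libraries, against 27 and 27.62 CPM in those of FBN-ARO-KO+GCI. Its log2 change was 0.42 (SE 0.111), and 0.295 after the GC content and length correction. Pik3r2, a regulatory subunit of PI3K, had a log2 change of -0.28, which was -0.0194 after the GC content and length correction. The 16 genes that BDNF is known to induce in neurons, which other stimuli also induce, had a median of -0.267 before and -0.0734 after that correction. Of these, 2 were higher, Dusp6 and Homer1, and 5 lower, Fos, Egr4, Npas4, Vgf and Ier2, against the same shares of all tested genes. Homer1 and Vgf are named because they had the smallest unadjusted p of this list, and the others after their values were seen. Vgf, which encodes a secreted neuropeptide precursor, was at 147.5 and 136.1 CPM in FLOX+GCI libraries, against 106.9 and 94.53 CPM in those of FBN-ARO-KO+GCI, with a log2 change of -0.49 (SE 0.0882; adjusted p = 0.238 by edgeR), and -0.157 after the correction. Homer1, a postsynaptic scaffold gene, was at 91.15 and 91.89 CPM against 118.3 and 144.9 CPM, with a log2 change of 0.52 (SE 0.104), and 0.216 after the correction. The members of this list thus lay on both sides of 0.

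**Figure D4:**
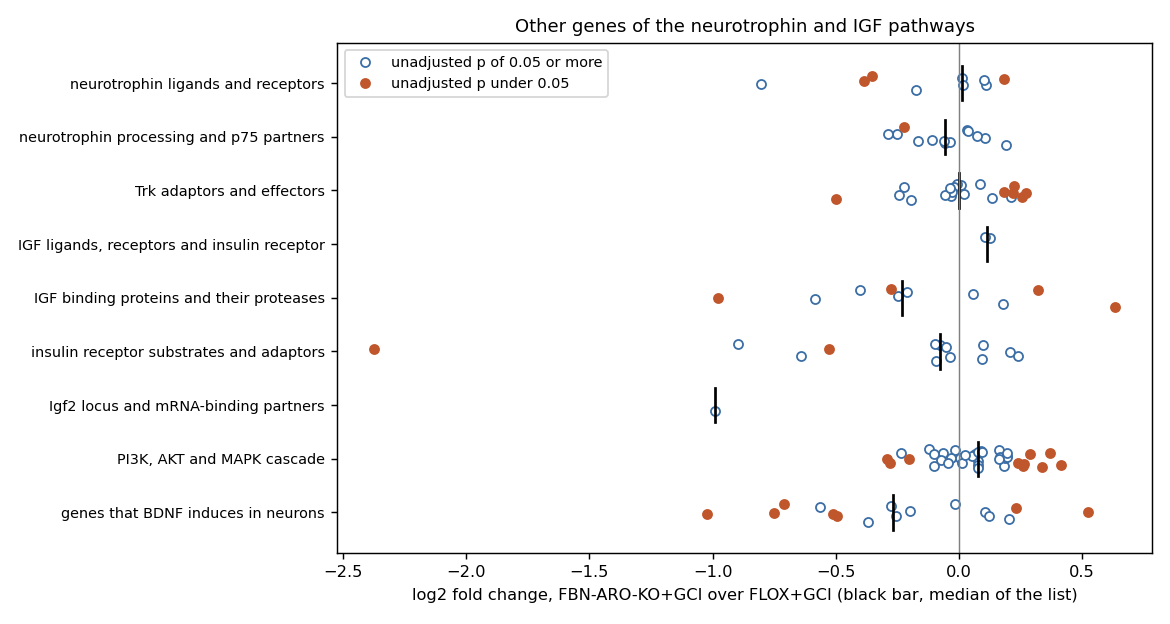
Log2 fold change of FBN-ARO-KO+GCI over FLOX+GCI for the 121 measured genes of both pathways outside the 9, 1 row of points per list; filled points have an unadjusted p under 0.05, black bars mark the median of each list, and the vertical spread within a row carries no value. The median of the BDNF-induced genes is -0.267, the lowest apart from that of the Igf2 locus list, which holds Igf2bp2 alone at -0.99, and the point farthest to the left is Socs3 at -2.37.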

How the data were processed

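Hippocampal total RNA from 4 libraries (2 FLOX+GCI, 2 FBN-ARO-KO+GCI) had been sequenced as 50 nt single-end reads. Per the submitters' processing notes, the authors used bcl2fastq, TopHat2 2.0.8b and HTSeq with mm9 and deposited raw counts per gene symbol. The counting strand setting is not given in the sources used here. Rows naming no gene (no feature, 12.3 to 13.7%) were left out of library sizes.

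Counts were tested with edgeR 4.0.16 in R 4.3.3: TMM, filterByExpr (minimum count 10), genotype as the only term, quasi-likelihood F test, two-sided, Benjamini-Hochberg adjustment over 14527 genes, calls at 0.05. The standard error is the log2 fold change over the square root of F. An exact permutation test of 2 against 2 libraries cannot go below p = 0.333. Exon lengths, GC content and loci came from a mm9 gene annotation, and the correction for GC content and length was a spline offset with 5 degrees of freedom per library. Promoter windows came from RefSeq (GRCm38.p6). The method was tested on simulated data. Alternatives were other scaling (RLE size factors, library totals), other filters, DESeq2 1.42.0, edgeR's likelihood ratio test, the replicate block, and each library left out.

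The genes, lists and rules were chosen with earlier results of these data known. Named genes are all 9 members, from each pathway list the 2 with the smallest unadjusted p, the 3 most abundant markers of a list and the 5 nearest patterns per member spanning over 1. Other genes were named after their values were seen. Some genes of the lists are not reported here by name. Low counts limit Ngfr most. The 95% intervals come from the edgeR fit and include the spread between libraries.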

Additional observations from a re-analysis of the deposited data

How the results depend on the processing

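The 9 genes had no adjusted call at 0.05 in edgeR's quasi-likelihood test, and the count was 1 with the likelihood ratio test (Igfbp2), 1 without FLOX+GCI replicate 2 (Igfbp2), 2 with the replicate block (Igf2 and Igfbp2) and 1 with the GC content and length correction and the replicate block together (Igf2); leave-one-out counts ran from 0 to 1. Igfbp2 was -0.865 (adjusted p = 0.0431) with the likelihood ratio test, -0.914 (0.00487) with the block and -0.555 after the GC content and length correction, and -1.36 to -0.501 with a library left out. Igf2 was -1.05 (0.000261) with the block and -0.941 (0.0332) with block and correction. With 4 libraries the block leaves little to estimate the spread of a single gene, so its adjusted p lean on the spread of other genes. Of all genes, 2 were called, against 5 with every gene counted, 292 by DESeq2, 294 by the likelihood ratio test, 184 with the replicate block, 13 with block and correction, and 0 to 193 with a library left out (193 without FLOX+GCI replicate 1, 127 without FLOX+GCI replicate 2, 0 without either FBN-ARO-KO+GCI library). Other pathway genes, 0 called, numbered 4, 9 and 6 by DESeq2, the likelihood ratio test and the block, and 0 to 5 with a library left out. Signs turned for Igf1 (-0.167 after the GC content and length correction, the same with the block), Ntrk3 (0.025, and 0.0256 with the block), Bdnf (-0.176 to 0.118 with a library left out), Ntf3 (-0.366 to 0.136) and Insr (-0.00621 to 0.266, the lowest without FLOX+GCI replicate 2). The block rests on replicate numbers that the labels do not tie to shared handling, and the deviations of same-numbered libraries correlated at 0.129 over 2 pairs. DESeq2 gave no adjusted p to Igf1, Igfbp2, Ngfr and Ntf3. The Igf2 locus list had no value with a mean of at least 50 counts. The causes were not tested. With 1 library left in a group, it is assumed to vary like the other group.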
